A study of Mus musculus with 2 samples.

Results

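Intermediate filaments are the rope-like polymers of the cytoskeleton, and the nuclear lamina is built from the same protein family. Cells choose among the family members. Mature neurons use the neurofilament subunits, alpha-internexin and peripherin; glia use GFAP; neural progenitors and some glia use nestin; muscle uses desmin with synemin; mesenchymal cells and glia use vimentin; and most differentiated cells line the nucleus with lamin A and C. Here 10 genes of this family, called members below, were read in 1 map of histone H3 trimethylated at lysine 4 (H3K4me3), a mark of active and poised promoters that does not itself measure transcription. They were a named set: the neuronal members Nefl, Nefm, Nefh, Ina and Prph, the glial members Gfap and Nes, the muscle member Synm, and the general members Vim and Lmna. All 10 were found among the 21887 protein-coding genes of the annotation.

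The chromatin came from NOS1+ enteric neurons sorted from the mouse small intestine, which are the nitrergic neurons of the gut wall. The series held 2 libraries from this 1 cell population, an H3K4me3 immunoprecipitate and an input, and the peak list of the immunoprecipitate was used. The sources used here state no genotype, strain, age, number of animals or sorting method. With 1 library and no second condition there was no replicate check and no test, and the values below describe this library.

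Each of the 10 genes carried H3K4me3 peaks, and the highest score per gene was lowest in the neuronal members. The list held 29924 peaks, and a peak was assigned to a gene when at least 1 bp lay over the gene model or within 1 kb of it. All 10 members had a peak by this rule, against 67.0% of all protein-coding genes. All 10 also had one within 1 kb of a start site (or of a model end where no start is listed), against 62.9% of coding genes. The score is the authors' own value for each peak, used here only to order peaks within the list. The highest score per gene ran from 8.38 to 22.1 over the 5 neuronal members (median 16.4) and from 27.3 to 241 over the other 5 (median 144), against a median of 153 over the 14665 coding genes with a peak. The ranges did not overlap, although Prph (22.1) and Gfap (27.3), on either side of the divide, lay close together. The glial members were low too, Gfap at percentile 11.2 and Nes (45.2) at percentile 16.5 of coding genes with a peak, so the median of 144 reflects Synm, Vim and Lmna. Taken over single peaks, the order was not the same. The median score was 9.58 over all peaks of the neuronal members and 7.32 over those of the others. A mark present in few of the sorted cells and a weak mark in all of them cannot be told apart in such a pooled library.

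**Figure D1:**
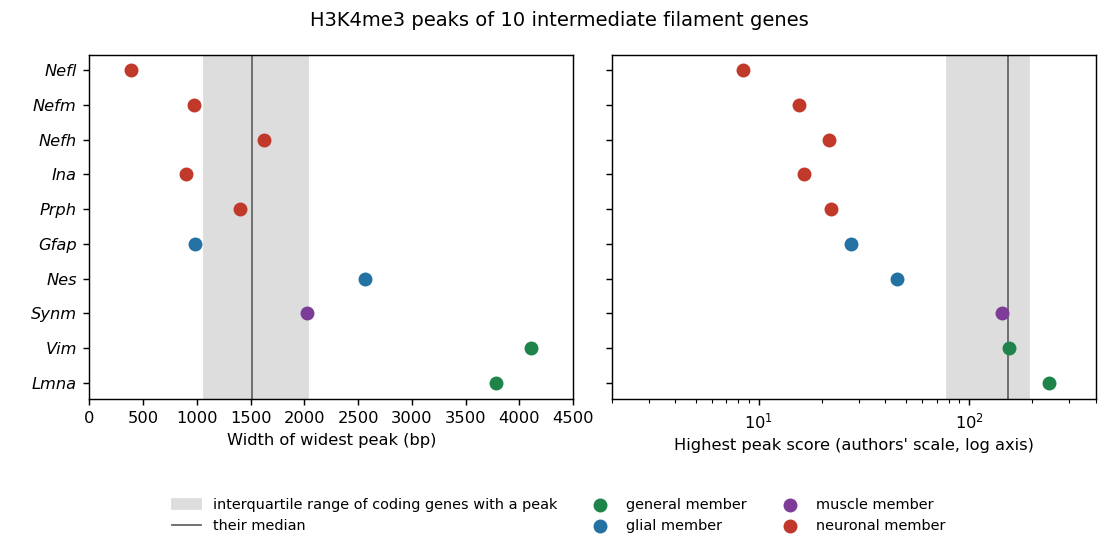
Width of the widest peak in bp (left, linear axis from 0) and highest peak score on the authors' scale (right, log axis) for each of the 10 members in the 1 H3K4me3 library; the grey band is the interquartile range and the line the median over 14665 coding genes with a peak. The 5 neuronal members lie left of the grey band in score, at 22.1 or less, while their widths reach up to 1624 bp, inside the band of widths.

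In width the separation was less complete. The widest peak had a median of 970 bp in the neuronal members (391 to 1624 bp) and of 2562 bp in the others (980 to 4109 bp), against 1515 bp over all coding genes with a peak. Gfap, at 980 bp, was narrower than Prph and Nefh. A peak wider than 2000 bp lay at 4 of the 10 members, all among the glial, muscle and general ones, against 17.5% of all coding genes, those without a peak included. The length covered by peaks ran from 853 to 1838 bp in the neuronal members and from 1954 to 6884 bp in the others, against a median of 1824 bp over the genes with a peak. By this measure Nefm, Nefh, Ina and Prph lay near the middle of coding genes, at percentiles from 40.4 to 50.6, and Nefl (853 bp) lay lower. The other members also had the longer gene models (median 9865 bp against 5460 bp), which leaves more room for peaks.

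The better-scored part of the list held no neuronal member. Of their 12 peaks none reached 35.7, the median score of the list, while 7 of the 23 peaks of the other members did. By gene, 4 of the 10 members (Nes, Synm, Vim and Lmna) had a peak among the upper 50% of the list by score, against 57.8% of coding genes. Among the upper 25%, which began at 141, there were 3 of 10 (Synm, Vim and Lmna), against 37.3% of all coding genes. These shares of coding genes include genes without a peak. For coding genes with a peak the median highest score, 153, lay above 141.

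The neurofilament triplet is encoded by Nefl, Nefm and Nefh, for the light, medium and heavy subunits that set the calibre of large axons. Nefl (gene ID 18039, mm10 chromosome 14, 68083863 to 68089095) had the lowest values of the 10 genes. It held 3 peaks at the lower end of its model, of 239, 223 and 391 bp with scores of 8.38, 2.42 and 5.29, separated by gaps of 137 and 60 bp. The score of 2.42 was close to the lowest in the list, 2.0015. Among coding genes with a peak, Nefl stood at percentile 2.8 for its highest score and 5.0 for its widest peak.

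Nefm (gene ID 18040, chromosome 14, 68119545 to 68125004) lies next to Nefl. It carried 2 peaks at the upper end of its model, of 970 bp (score 15.2) and 675 bp (score 15.6), only 75 bp apart. The 970 bp peak also covered the lower end of the long noncoding RNA gene A230070E04Rik, which overlaps Nefm. The 675 bp peak lay wholly inside the model of that gene. Neither peak can therefore be given to Nefm alone. The 30449 bp between the Nefl and Nefm models held no peak. Nefm ranked above Nefl in score (percentile 7.0) and in widest peak (percentile 20.6).

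Nefh (gene ID 380684, chromosome 11, 4938754 to 4948064) was the only neuronal member with 1 unbroken peak. The peak spanned 1624 bp across the upper end of the model, and its score was 21.5. It was thus wider than the median gene's widest peak (percentile 56.3) with a score at percentile 9.2. Among the 2619 peaks of the list within 10% of its width, its score stood at percentile 0.9, where the median was 159. The peak also covered the lower end of the Ap1b1 model, where that plus-strand gene, for a subunit of a clathrin adaptor, begins. The peak therefore cannot be given to Nefh alone, although the listed Ap1b1 start lay 38089 bp away.

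Ina and Prph encode the other neuronal filaments. Alpha-internexin, the product of Ina, assembles with the neurofilament subunits, and peripherin, the product of Prph, is characteristic of peripheral neurons, those of the gut included. Their start sites are listed in the RefSeq promoter table (GRCm38.p6, the assembly of mm10), as are those of the 5 glial, muscle and general members. For Nefl, Nefm and Nefh both ends of the model were used instead.

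The sequences before the start sites of Ina, Synm, Prph and Vim are shown because Ina and Synm, and Prph and Vim, have similar numbers of CG dinucleotides and different scores (the pairs were picked after the values were seen). Each line gives the 250 bases before the start, 5′ to 3′ on the gene's strand, from RefSeq (GRCm38.p6), with CG dinucleotides in capitals.
Ina (chr19:47014431-47014680, plus strand): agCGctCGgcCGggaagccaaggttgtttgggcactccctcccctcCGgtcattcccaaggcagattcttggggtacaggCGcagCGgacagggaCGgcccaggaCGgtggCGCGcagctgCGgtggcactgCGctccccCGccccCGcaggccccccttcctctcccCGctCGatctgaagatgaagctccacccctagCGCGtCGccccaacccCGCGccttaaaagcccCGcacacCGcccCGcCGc
Synm (chr7:67759743-67759992, minus strand): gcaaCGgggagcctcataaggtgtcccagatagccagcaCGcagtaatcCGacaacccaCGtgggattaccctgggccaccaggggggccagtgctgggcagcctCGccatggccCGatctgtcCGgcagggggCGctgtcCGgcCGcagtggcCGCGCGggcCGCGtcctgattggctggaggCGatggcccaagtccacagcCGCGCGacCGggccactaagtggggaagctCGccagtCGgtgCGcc
Prph (chr15:99054924-99055173, plus strand): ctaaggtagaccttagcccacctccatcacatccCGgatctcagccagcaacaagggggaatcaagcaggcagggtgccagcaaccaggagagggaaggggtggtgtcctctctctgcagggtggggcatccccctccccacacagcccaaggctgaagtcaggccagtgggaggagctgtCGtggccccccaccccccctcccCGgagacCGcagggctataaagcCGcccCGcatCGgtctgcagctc
Vim (chr2:13574061-13574310, plus strand): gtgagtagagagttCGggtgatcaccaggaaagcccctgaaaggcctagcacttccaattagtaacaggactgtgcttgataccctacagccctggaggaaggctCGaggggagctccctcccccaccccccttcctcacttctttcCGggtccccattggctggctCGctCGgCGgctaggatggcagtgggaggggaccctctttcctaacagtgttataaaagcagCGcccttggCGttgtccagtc

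CG-rich start sites commonly carry H3K4me3, and in this library the score rose with CG content. Listed starts with 0 to 4 CG dinucleotides in the 300 bp window (250 bases before and 50 after the start) had a peak within 1 kb in 9.84% of 6035 cases, and those with 30 to 67 in 98.7% of 3283. The median score where there was a peak was 40.9 in the first class and 172 in the last. These are values across genes of 1 library, and genes are not replicates.

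Ina scored low for its CG content. Its window held 32 CG dinucleotides (percentile 88.1 of 21263 start windows) and that of Synm 33, yet the highest score within 1 kb was 16.4 at Ina and 144 at Synm. Among the 3240 windows with a peak in their class of 30 or more, Ina stood at percentile 2.3 and Synm at 31.6. Prph (10 CG) and Vim (11 CG) shared the class of 10 to 19, in which the 3890 windows with a peak had a median score of 144. Prph stood there at percentile 9.2 with 22.1, Nes (18 CG) at 16.6 with 45.2, and Vim at 55.5 with 155. Neither neuronal gene reached the 10th percentile of its class, which was a score of 64.1 for Ina and 23.6 for Prph.

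**Figure D2:**
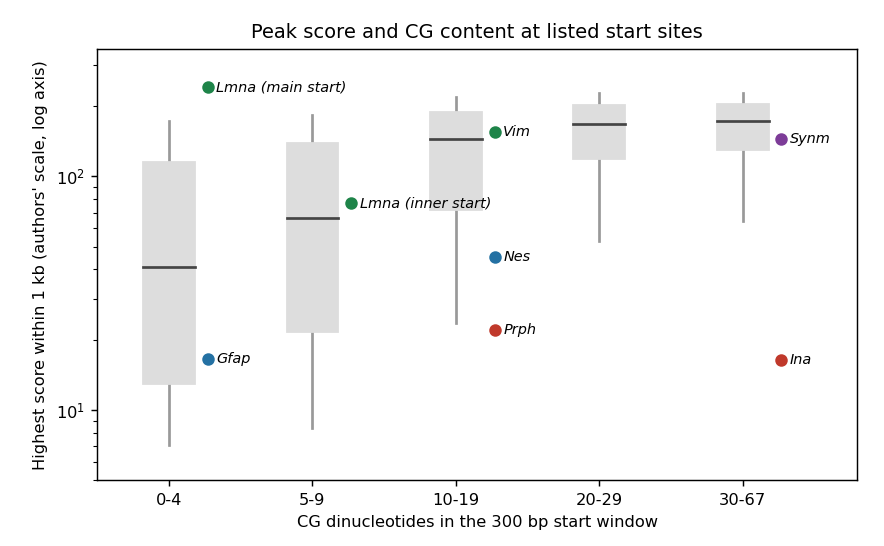
Highest peak score within 1 kb of a listed start site (authors' scale, log axis) by the number of CG dinucleotides in the 300 bp start window; grey boxes are the interquartile range, dark lines the median and thin lines the 10th to 90th percentile of protein-coding start windows with a peak, and coloured points are members (red neuronal, blue glial, purple muscle, green general). Ina (16.4) lies far below Synm (144) in the same class, Prph (22.1) below Vim (155), and the main Lmna start (241) above its class.

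Both Prph and Vim had the letters TATAAA on the gene's strand, at positions -31 to -26 at Prph and -32 to -27 at Vim, counted from 0 at the start site. This sequence was found on either strand in 12.6% of the 21263 start windows. GGGCGG, the GC box, occurred 2 times each in the windows of Ina and Nes and 1 time in those of Prph and of the main Lmna start (46.2% of windows). CCAAT was found 2 times at Vim and 1 time each at Synm and at the inner Lmna start (38.2% of windows). TGANTCA, the AP-1 motif, was found in the window of the main Lmna start alone (6.99% of windows). Both strands were searched, no motif contains another, and each GGGCGG holds 1 of the capitalised CG. These are matches of letters only.

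At Ina (gene ID 226180, chromosome 19, 47014681 to 47025327) the mark was broken around the start site. It had 3 peaks, of 448 bp from -501 to -54 (score 9.32), 383 bp from +4 to +386 (score 16.4) and 900 bp from +561 to +1460 (score 9.68), so that the start itself lay in a gap of 57 bp between peaks. A listed start of Nt5c2, a nucleotidase gene on the opposite strand, lay 493 bp into Ina, between the last 2 peaks and inside neither. These peaks may therefore belong to either gene. Other listed Nt5c2 starts, over 45 kb away, were not part of this cluster.

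Prph (gene ID 19132, chromosome 15, 99053579 to 99058978) had the highest score of the neuronal members. Its main peak, of 1405 bp with a score of 22.1, ran from +52 to +1456. It so began just past the listed start, which itself lies inside the model. A second peak of 261 bp (score 9.48) followed at +1599, and another of 172 bp (score 7.33) ran from -1347 to -1176, before the listed start. No other gene's end lay within 1 kb of any of the 3 peaks, so Prph is the neuronal member besides Nefl whose peaks touch no neighbour. Its widest peak was near the middle of the gene distribution (percentile 43.7), its score low (percentile 9.4).

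**Figure D3:**
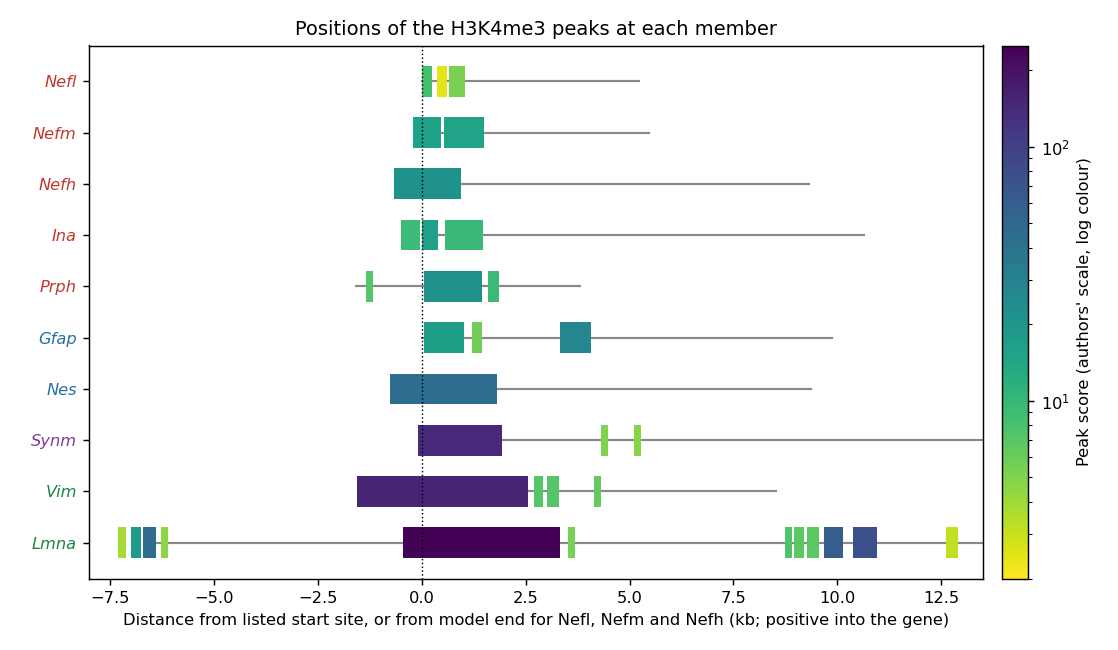
Positions of the peaks of each member in kb from the listed start site (for Lmna, the start under its widest peak), or from the model end that carries the peaks for Nefl, Nefm and Nefh; positive values run into the gene, grey lines are gene models, which at Synm and Lmna run past the right edge, and colour is the peak score on a log scale. The start lies inside a peak at Nes, Synm, Vim and Lmna and outside every peak at Ina, Prph and Gfap.

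Gfap (gene ID 14580, chromosome 11, 102887336 to 102897200), the filament of astrocytes and of part of the enteric glia, was closer to the neuronal members than to Nes in score and width. It had 3 peaks, and the one nearest the start, of 980 bp with a score of 16.6, ran from +44 to +1023. Its best-scored peak, of 749 bp with 27.3, lay 3315 to 4063 bp inside the gene, and a peak of 225 bp with 5.78 lay between them. Gm34560, a long noncoding RNA gene on the opposite strand, starts 145 bp before Gfap and 189 bp from the nearest peak. The Gfap window held 3 CG dinucleotides, and its score near the start was at percentile 31.1 of the 594 windows with a peak in that class. In relation to its base composition Gfap was thus less low than Ina or Prph.

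Nes (gene ID 18008, chromosome 3, 87971093 to 87980451) encodes nestin, which is used by neural crest progenitors. It carried 1 unbroken peak of 2562 bp from -759 to +1802, which put it at percentile 88.6 of widest peaks. Its score of 45.2 was only at percentile 16.5 of genes, and at percentile 3.1 among the 1158 peaks of similar width. A low score for the width was common among the members: the widest peaks of the 5 neuronal genes and of Gfap stood between percentiles 0.9 and 6.7 by the same measure.

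Markers of neurons and of glia both carried peaks in this library. All 12 neuron markers had a peak (67.0% of all coding genes did), with a median highest score of 48.1 (11.6 to 148). Of the 12, 7 reached the upper 50% of the list, about the share of all coding genes (57.8%, those without a peak included), and 0 of the 5 neuronal filament genes did. Snap25 (11.6), Syt1 (19.2), Stmn2 (19.8) and Nos1 (13.0), the gene of the sort, lay as low as the filament genes, while Hand2 scored 148 and Map2 102. Nos1 had 1 peak of 183 bp, away from its listed starts and by an end of Gm26995. All 10 glia markers had one too, with a median score of 76.2 (25.2 to 195, the highest from a peak outside the Erbb3 model), 7 of them in the upper 50%, from Sox10 (6775 bp, score 85.9) and Sox2 (4588 bp, 116) down to Gfra3 (605 bp, 25.2). The part of glial chromatin in the peaks of Gfap, Nes and Vim was not tested.

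Synm (gene ID 233335, chromosome 7, 67730161 to 67759742) encodes synemin, which links desmin filaments to the membrane in muscle and also occurs in glia. Its main peak of 2023 bp, score 144, ran from -93 to +1929, almost wholly into the gene. Narrow peaks of 153 bp each, with scores of 5.07 and 4.85, lay 4324 and 5116 bp inside. Its score was at percentile 45.5 and its width at 74.5, so Synm was marked about as strongly as the usual coding gene with a peak. Des, the gene of desmin, the muscle filament that synemin joins, was unlike it: 4 peaks, the widest 711 bp, and a highest score of 20.6, in the range of the neuronal members. All 8 smooth muscle markers, Des among them, had a peak (67.0% of all coding genes did), with a median score of 19.0 (8.38 to 156). In the upper 50% of the list there were 2 of the 8, against 57.8% of coding genes. The part of muscle chromatin in the Synm peak was not tested.

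Vim (gene ID 22352, chromosome 2, 13574311 to 13582826) had the widest peak of the 10 genes, 4109 bp from -1563 to +2545, rank 204 among coding genes. The score of 155 was near the median gene (percentile 51.3) and in the middle of the 195 peaks of similar width (percentile 49.5). Behind it lay 3 narrow peaks of 161 to 287 bp with scores from 6.28 to 7.32, the last ending 4300 bp inside the gene. A further peak of 528 bp (score 9.67) lay 1667 bp before the model, outside the 1 kb limit. Vimentin is made by fibroblasts, interstitial cells and glia, and all 9 interstitial cell and fibroblast markers had a peak (67.0% of all coding genes did), with scores from 4.33 to 94.4 (median 31.5), all below that of Vim. Their part in the Vim peak was not tested.

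Lmna (gene ID 16905, chromosome 3, 88481148 to 88509932), the gene of lamin A and C, had the highest score, 241 (percentile 95.5, rank 652), and the most peaks, 12. They fell into groups along the model. The main peak, of 3779 bp, covered the listed start at 88503352, from -442 to +3336. A second group surrounded the inner listed start at 88493312: a peak of 455 bp (score 59.8) covered it, one of 579 bp (score 76.7) lay 341 bp inside it, and 3 narrow peaks with scores from 6.69 to 7.65 lay before it. Another group, of 4 peaks, 173 to 315 bp wide, stood at the upper end of the model, which is its 5′ end, with scores from 3.85 to 46.1. A peak of 161 bp (score 5.50) lay 185 bp from the main peak, and one of 291 bp (score 3.14) lay alone, further into the gene.

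The main Lmna start was an exception to the relation with CG content. Its window held 1 CG dinucleotide (percentile 8.0), and its score was at percentile 98.9 of the 594 windows with a peak in the class of 0 to 4. The inner start held 7 and stood at percentile 54.0 of its class. With a CG count that low, only 4.76% of listed starts were covered by a peak at all.

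Peaks of the members were often split. By gene, 7 of the 10 members had 3 or more peaks, against 14.7% of all coding genes, those without a peak included. Of their 35 peaks 18 were narrower than 300 bp, against 27.9% of the whole list, and Lmna alone supplied 8 of the 18. The neuronal members had 4 of 12, near the share of the list. The shortest gaps between peaks were 53 bp at Lmna, 57 bp at Ina, 60 bp at Nefl, 75 bp at Nefm, 105 bp at Vim, 142 bp at Prph and 194 bp at Gfap. With peaks less than 1 kb apart joined, the widest region was 1050 bp at Nefl, 1720 bp at Nefm, 1624 bp at Nefh, 1962 bp at Ina and 1808 bp at Prph, and the median coding gene with a peak had 1816 bp. Joined in this way, the width of 4 of the 5 neuronal members lay between percentiles 40.1 and 57.3, and only Nefl (percentile 15.7) stayed narrow. A joined region keeps the highest score of its peaks, so the scores stayed as given above.

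Where a start is listed, a peak covered it in 4 of 7 members (Nes, Synm, Vim and Lmna), close to the 55.9% of all coding genes with a listed start. Of all listed starts with a peak within 1 kb, 86.8% were covered. The 3 members without a covered start, Ina, Prph and Gfap, each had the nearest peak on the downstream side, 4, 52 and 44 bp away, as did 78.9% of the 1752 such starts in the library. At Nefl, Nefm and Nefh a peak covered an end of the model, as it did in 47.3% of the coding genes with no start in the table.

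Other genes of the family and its partners were read in the same way. The B-type lamins, which line the nucleus of nearly every cell, also had a peak each. Lmnb1 had one of 3112 bp with a score of 204, and Lmnb2 one of 1200 bp over its listed start with 122. The 248 that the 1 kb rule counts for Lmnb2 belongs to a peak 499 bp outside its model, at the ends of Timm13 and Tmprss9. All 10 genes of lamina partners and lamin processing had a peak (67.0% of all coding genes did). Each had at least 1 in the upper 50% of the list, against 57.8% of coding genes, those without a peak included. Their median highest score was 170. Sun2, an inner membrane protein that ties the lamina to the cytoskeleton, scored 234, Syne2, its partner at the outer membrane, 186 in a peak of 2869 bp. Tmpo had peaks of 2162 bp (score 200) and 2194 bp (score 177). Banf1, a DNA-binding partner of the lamina, scored 246, and its peak also lies at the end of Eif1ad. Syne1 was lowest, at 41.0.

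Among other cytoplasmic filament genes, Bfsp1, a lens filament gene, scored 168 with a peak of 3290 bp that also lies at an end of Dstn. That peak covers no listed start of Bfsp1. The peak that does, of 729 bp, scored 35.8 and also lies by an end of Gm33648. Sync, for the desmin-binding syncoilin, scored 54.5 with 1772 bp, and Bfsp2 had no peak. Keratins, the filaments of epithelia, were marked in 6 of 13 (median score 16.8), a share below the 67.0% of all coding genes. Krt7, Krt8, Krt18 and Krt19, of simple epithelia, scored between 7.68 and 20.2, against 8.38 to 22.1 in the neuronal members, and Krt20 had no peak. Krt10 was the exception at 148 (1598 bp), with no peak within 1 kb of its listed start, and Krt1 had 75.9. Over the epithelial markers 7 of 9 had a peak, near the share of all coding genes. Epcam and Lgr5 scored 32.9 each, Cdh1 19.8 and Cldn7 19.1, while Vil1 and Muc2 had none.

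All 9 cytolinkers and turnover genes had a peak (67.0% of all coding genes did), with a median score of 82.9. The widest peaks lay at the broadly used linkers, with 4371 bp at Dst (score 52.6), 2948 bp at Plec (score 56.1) and 2836 bp at Macf1 (score 153). Those of Dst and Macf1 cover no listed start of their gene, and that of Macf1 also lies by an end of Gm12925. Dst scored highest in another peak, of 1605 bp with 162. The best-scored peak counted for Plec, of 1349 bp with 82.9, lay 451 bp outside its model, beside Parp10. Trim2, a ubiquitin ligase that binds the light neurofilament subunit, scored 127 in a peak of 2237 bp, which also lies by an end of Gm40078. The linkers of epithelial junctions and the cornified layer, Dsp (8.38), Eppk1 (19.0), Evpl (16.7) and Ppl (22.8), were lowest.

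**Figure D4:**
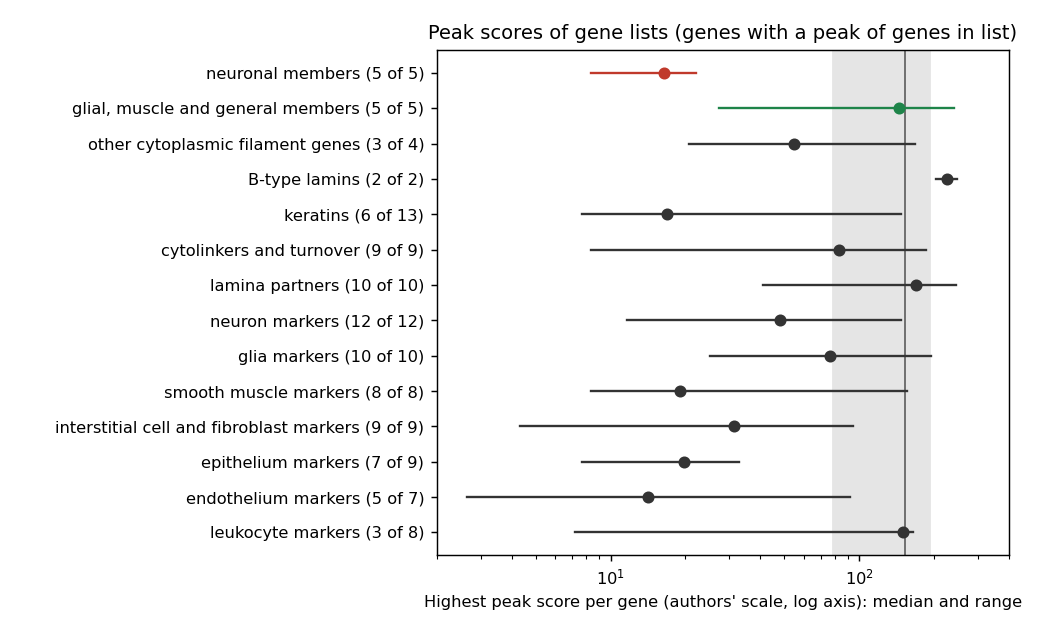
Highest peak score per gene (authors' scale, log axis) in the members, other filament-related lists and cell type marker lists; dots are medians and lines the range over genes with a peak, counts in the labels are genes with a peak of genes in the list, and the grey band and line are the interquartile range and median over coding genes with a peak. The neuronal members (median 16.4) lie by the keratins (16.8) and smooth muscle markers (19.0), and below the neuron markers (48.1) and lamina partners (170).

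Endothelial markers had a peak in 5 of 7 genes, with scores from 2.64 to 91.5 (median 14.2), and leukocyte markers in 3 of 8, against 67.0% of all coding genes. The highest endothelial score was that of Kdr, in a peak of 1501 bp over its listed start that also lies by an end of Gm32727. Of the defining leukocyte markers, Adgre1, Cd3e, Cx3cr1, Itgam and Itgb2 were without a peak, Ptprc had a highest score of 7.18, and the higher values of Cd79a (165) and Cd68 (150) came from peaks outside their models. Scores in the range of the neuronal members were thus also found at some keratin, endothelial and muscle genes of this library.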

How the data were processed

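The authors' deposited peak list gives each peak of the H3K4me3 library a position and a score. The file header names MACS2 and paired-end reads. BWA, Picard, MACS2 and mm10 appear in the submitters' processing notes with no role or version. No source used here states the score's scale, the calling threshold, the treatment of duplicates or the depth, so no depth-based interval was computed. Weak domains are the first to be split or lost at low depth. Peaks were assigned with Python 3.11.15 and pandas 2.3.3 to RefSeq gene models of GRCm38.p6 (21887 coding genes on 21 chromosomes), with 1 kb to each side and an overlap of at least 1 bp. Listed starts came from the RefSeq promoter table for 17492 genes; for the other 4395 either model end was used. Percentiles are mid-ranks among coding genes with a peak. The code was tested on simulated data.

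The members, the gene lists and the rule for naming genes (all members, the other filament genes and lamins, up to 4 of the widest per list and those against their list's majority, and marker genes) were chosen with earlier results of these data known. Genes named beyond that rule, such as low-scored list members, were picked after their values were seen. The input library was not analysed here. List counts include some genes whose own values are not reported here.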

Additional observations from a re-analysis of the deposited data

How the results depend on the processing

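Sequencing depth is unknown, and 1 library limits every value to a description. No paired analysis was possible because the series has 1 immunoprecipitate. Restricting the list to the 50% of peaks with the highest scores left 4 members with a peak, 0 neuronal and 4 other members with one at the start, and medians of 3170.5 bp and a score of 149 for the others. The 25% with the highest scores left 3 members, 0 neuronal and 3 other members at the start, and medians of 3779 bp and 155. No neuronal median could be given in either set, by construction, since these restrict on the score itself. Joining peaks less than 1 kb apart raised the neuronal median width from 970 to 1720 bp and left the others at 2562 bp; it changed the widest peak of 7 members, among them Vim at 6495 bp. Windows of 500 or 2500 bp, and an overlap of at least 50% of the peak, changed no member's widest peak or highest score. That overlap lowered the other members with a peak at the start from 5 to 4. The member lost was Vim, whose peak over the start, of 4109 bp, is too wide to lie by 50% within 1 kb of it. Of the widths and scores, keeping only peaks of at least 300 bp changed 1, the highest score of Nefl, to 5.29.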

Other observations

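The members differed in how far the next peak lay. Beyond the upper end of Nefm the next peak of the list was 904083 bp away (744 bp, score 9.67), and beyond the upper end of Vim 210224 bp away (937 bp, score 24.7). Nefl had its next peak below at 32169 bp (868 bp, score 31.9). Around Nes they were nearer, at 10047 bp below (633 bp, score 88.3) and 6382 bp above (177 bp, score 11.3). Around Gfap a 1680 bp peak scoring 121 lay 5587 bp below the model, far better scored than any of the 3 peaks of Gfap itself. The peaks next to Ina, of 2179 bp (score 190) at 51766 bp below and 1411 bp (score 150) at 24515 bp above, were also far better scored than those of Ina. The first of these covers 4 listed starts of Nt5c2. Start sites were not matched to the other neighbouring peaks.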
